A study of Mus musculus with 12 samples.

Results

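The genes described here are the heat shock factor *Hsf1* and 9 heat shock chaperones, *Hspa1a*, *Hspa1b*, *Hspa8*, *Hsp90aa1*, *Hsph1*, *Dnajb1*, *Dnaja1*, *Hspb1* and *Hspe1*, in the liver of mice given zinc and a glucocorticoid. They were taken by symbol, by a rule that uses no measured value, although the list was drawn up with earlier results of these data known, and each of the 10 symbols matched 1 of the 54838 genes in the table of raw read counts. Liver RNA was sequenced from 12 female C57BL/6J mice, in 4 groups of 3. Their drinking water was plain or held 25 mM ZnSO4 over 7 days, and an i.p. injection followed, either PBS or 200 µg of the synthetic glucocorticoid dexamethasone (Dex), with liver collected 2 h later. By water and then injection, the groups are called water-PBS, water-Dex, zinc-PBS and zinc-Dex. All mice were wild type, and all were injected. The study asked in ileum whether zinc changes the transcription of genes that respond to Dex, and reported liver for zinc against plain water.

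HSF1 is the transcription factor that responds to unfolded protein. In resting cells it is held inactive, in part by the chaperones themselves, and when these are drawn away by unfolded protein it forms trimers that bind heat shock elements, which are inverted repeats of GAA. HSF1 is controlled mainly at the level of the protein, and its mRNA does not report its activity. Its classical targets are the cytosolic chaperones: the HSP70 proteins fold clients in cycles of ATP hydrolysis, the J proteins DNAJA1 and DNAJB1 bring clients to them, HSPH1 exchanges their nucleotide, and HSP90 completes the folding of kinases and steroid receptors. The glucocorticoid receptor is itself a client of HSP70 and HSP90 before it binds hormone.

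Total counts lay between 9091152 and 12303527 per library. The treatments were visible in their usual marker genes. *Mt1*, a metallothionein gene that responds to metals and to glucocorticoids, had 209 to 435 normalized counts in water-PBS and 3427 to 6212 in zinc-PBS. *Tat*, a glucocorticoid receptor target of hepatocytes, had 6174 to 12189 normalized counts in the 6 PBS-injected mice and 61567 to 84028 in the 6 Dex-injected mice. Of the 8 hepatocyte markers matched, all had counts, and 4 of 10 pancreas and gut markers were at 0 in all libraries. The others had counts, and the summed level of this list was 524 to 756 normalized counts per library. The summed level of 14 immediate early genes stood apart in 2 libraries, at 5899 in water-PBS replicate 1 and 7092 in zinc-PBS replicate 1, against 1826 to 4778 in the other 10.

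The level of the 10 genes was compared per length, as TPM (reads per exon length, scaled to the same sum in each library) averaged over the 12 libraries. *Hspa8*, the constitutive HSP70 (ENSMUSG00000015656, chromosome 9, 40800984 to 40810087), was highest at 343 TPM. *Hspe1*, the mitochondrial HSP10 that caps the HSP60 chamber (ENSMUSG00000073676, chromosome 1, 55088132 to 55091307), followed at 127 TPM. *Dnaja1* (ENSMUSG00000028410, chromosome 4, 40722150 to 40737149) was at 62.9 TPM. The inducible HSP90 gene *Hsp90aa1* (ENSMUSG00000021270, chromosome 12, 110690605 to 110702728) was at 53.1 TPM, and in 8 of 12 libraries *Dnaja1* lay above it.

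Lower in the order were *Hsph1* (ENSMUSG00000029657, chromosome 5, 149614287 to 149636376) at 21.2 TPM and *Dnajb1* (ENSMUSG00000005483, chromosome 8, 83608193 to 83612653) at 18.9 TPM. *Hsph1* exceeded *Dnajb1* in 7 of 12 libraries, so these neighbours were not separated. The stress-inducible HSP70 gene *Hspa1b* (ENSMUSG00000090877, chromosome 17, 34956436 to 34959238) was at 12.6 TPM. The small heat shock protein gene *Hspb1* (ENSMUSG00000004951, chromosome 5, 135887919 to 135889563) was at 8.65 TPM, and *Hspa1b* exceeded it in 6 of 12 libraries. *Dnajb1* lay above *Hspa1b* in 10 of 12 libraries. *Hsf1* (ENSMUSG00000022556, chromosome 15, 76477422 to 76501913) was at 4.11 TPM. *Hspa1a*, the near-copy of *Hspa1b* (ENSMUSG00000091971, chromosome 17, 34969190 to 34972156), was lowest at 0.584 TPM. The other neighbours in this order, from *Hspa8* down to *Hspa1a*, kept their order in all 12 libraries. Coordinates are on GRCm38.

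**Figure D1:**
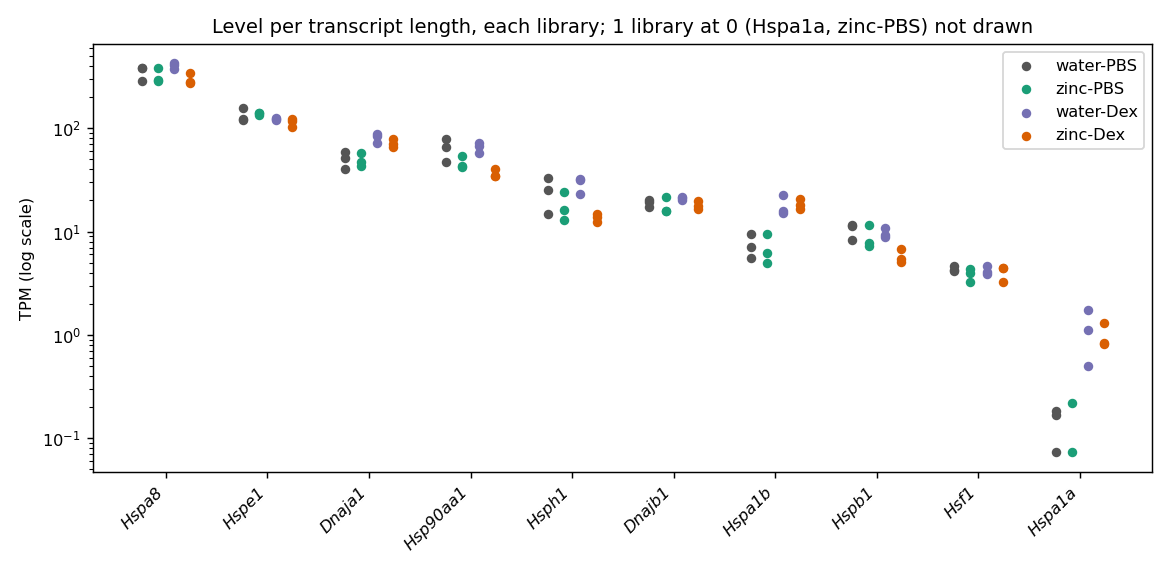
Level of each gene in TPM (log axis), 1 point per library, in the order of the mean over 12 libraries, coloured by group. The means run from 343 TPM for Hspa8 to 0.584 TPM for Hspa1a, whose Dex-injected mice lie above the PBS-injected ones; 1 zinc-PBS library with 0 reads of Hspa1a is not drawn.

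Some of these levels are uncertain because reads that map to more than 1 place were excluded from the counts. Of the 50-base windows of the transcripts of *Hspa1a*, 66.3% also occur in another gene, and 58.8% occur in *Hspa1b*. The share was 62.3% for *Hspa1b*, 50.1% for *Hspb1*, 47.5% for *Hsp90aa1*, 39.4% for *Hspa8*, 22.8% for *Hspe1*, 20.6% for *Dnaja1* and 0.4% for *Dnajb1*. It was 0 for *Hsf1* and *Hsph1*. The counts of *Hspa1a* and *Hspa1b* therefore come from the parts in which they differ. *Hspe1* shares 112 exon bases with *Hspd1* and *Dnaja1* shares 608 with *Smu1*, each on the opposite strand, and whether strand was used in the counting was not given in the sources used here.

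Promoters were read for those of the 10 genes that had a window. The sequences of *Hspb1* and of *Dnajb1* were searched but are not printed. *Dnajb1* was called higher in the mean Dex effect, but not with Dex on plain water or on zinc water alone. The sequence of *Hspe1*, which did not pass the test in any comparison by DESeq2 with its own scaling, is printed. RefSeq promoter windows (GRCm38.p6, 250 bases before to 50 after the start) were at hand for 7 of the 10 genes, and *Hsf1*, *Hspa8* and *Hsp90aa1* had none. Where RefSeq gives several starts, the window nearest the annotated start was taken, and that of *Dnaja1* lies within the annotated gene. The 250 bases before the start are printed 5′ to 3′ along the gene, and capitals mark bases in a pair of heat shock element units, GAANNTTC or TTCNNGAA, searched on both strands.
*Hspa1a* (chr17:34972157-34972406, minus strand): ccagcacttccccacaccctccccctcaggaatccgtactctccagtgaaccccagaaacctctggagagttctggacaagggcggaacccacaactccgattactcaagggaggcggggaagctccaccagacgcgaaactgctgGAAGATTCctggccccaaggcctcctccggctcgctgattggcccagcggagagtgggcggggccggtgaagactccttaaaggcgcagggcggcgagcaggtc
*Hspa1b* (chr17:34959239-34959488, minus strand): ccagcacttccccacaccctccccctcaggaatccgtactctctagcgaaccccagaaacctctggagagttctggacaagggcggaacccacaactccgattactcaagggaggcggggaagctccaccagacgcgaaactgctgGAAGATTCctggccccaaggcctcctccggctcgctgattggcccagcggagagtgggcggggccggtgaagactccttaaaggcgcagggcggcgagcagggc
*Dnaja1* (chr4:40722218-40722467, plus strand): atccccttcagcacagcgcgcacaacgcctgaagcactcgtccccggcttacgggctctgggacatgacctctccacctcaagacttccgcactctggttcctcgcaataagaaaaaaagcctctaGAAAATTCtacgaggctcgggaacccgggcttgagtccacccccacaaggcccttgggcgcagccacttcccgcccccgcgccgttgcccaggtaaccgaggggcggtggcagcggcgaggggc
*Hsph1* (chr5:149636337-149636586, minus strand): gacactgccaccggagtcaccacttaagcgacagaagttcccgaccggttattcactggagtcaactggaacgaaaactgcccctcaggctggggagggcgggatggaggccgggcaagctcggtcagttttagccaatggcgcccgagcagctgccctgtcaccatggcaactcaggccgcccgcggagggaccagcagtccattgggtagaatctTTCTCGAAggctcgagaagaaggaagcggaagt
*Hspe1* (chr1:55087898-55088147, plus strand): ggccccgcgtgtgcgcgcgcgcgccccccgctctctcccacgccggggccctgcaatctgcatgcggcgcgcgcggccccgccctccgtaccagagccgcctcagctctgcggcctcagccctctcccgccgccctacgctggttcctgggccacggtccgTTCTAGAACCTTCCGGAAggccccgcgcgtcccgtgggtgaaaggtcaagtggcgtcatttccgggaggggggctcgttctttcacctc

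The promoters of *Hspa1a* and *Hspa1b* differed at 3 of these 250 bases, and both held a pair from -104 to -97, counted with the start base as 0. A pair was present in 6 of the 7 windows and in 15.1% of 32544 promoter windows of the same length. The exception was *Dnajb1*. A pair with another GAA unit beside it, 3 alternating units in a row on either strand, was present in 0.608% of promoters. *Hspe1* held 2 overlapping such triples, between -89 and -72. *Hsph1* held 1, at 36 to 48, which is outside the printed bases. The core of the metal response element, TGCACNC or TGCGCNC on either strand, had 2 matches in *Dnaja1* and 1 in *Hspe1*, and 25.9% of promoters had a match. The full palindrome of the glucocorticoid response element was in none of the 7 windows and in 0.009% of promoters. A match is a run of letters and was not tested as a binding site.

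**Figure D2:**
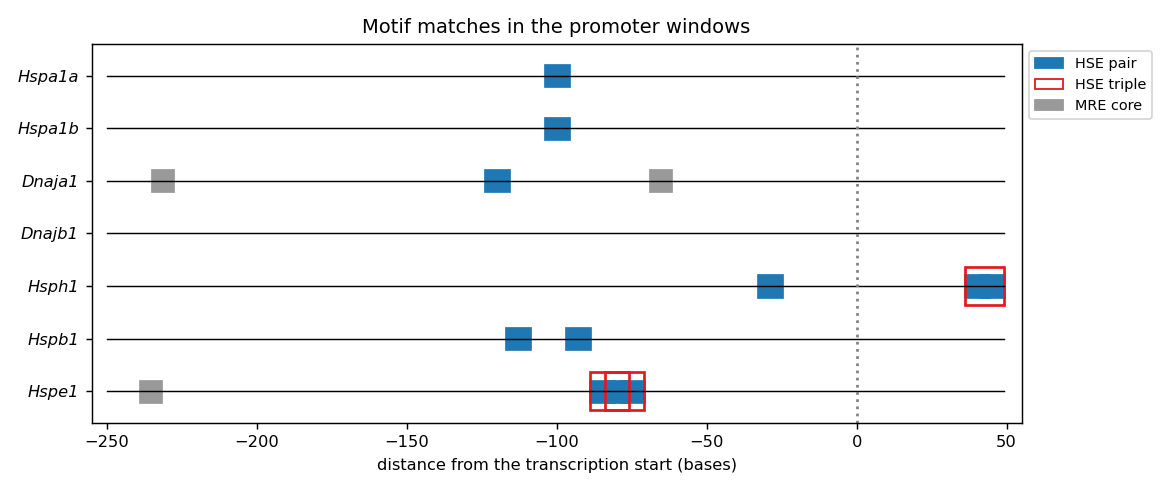
Motif matches in the promoter windows of 7 genes, against distance from the transcription start in bases. Filled blue boxes are pairs of heat shock element units (HSE pair), red outlines are 3 units in a row (HSE triple) and grey boxes are cores of the metal response element (MRE core). Hspe1 and Hsph1 hold triples and Dnajb1 holds no match.

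The next comparison asked what Dex changed in mice on plain water. Transcripts of the inducible HSP70 genes and of their J protein partner *Dnaja1* rose in water-Dex, and that of *Hspa8* rose slightly. In all, 4 of 10 genes were called higher and 0 lower, at a DESeq2 adjusted p under 0.05 over all genes, where 22.0% of the 13998 genes tested were called, 11.8% higher and 10.1% lower. The median log2 fold change of the 10 genes was 0.37, against -0.01 over all genes tested. In whole liver, more cells of a type and more RNA per cell cannot be told apart.

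*Hspa1b* had 84.0, 65.5 and 108 normalized counts in water-PBS, and in water-Dex it had 201, 214 and 294. The groups did not overlap. The rise was 2.77-fold (log2 fold change 1.47, SE 0.241, DESeq2 adjusted p = 2.4e-08), and it was called in all 21 alternatives, with log2 values of 1.27 to 1.66.

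*Hspa1a* had 2, 1 and 2 raw reads in water-PBS and 7, 15 and 24 in water-Dex. All 3 Dex-injected mice lay above the controls, from a base of very few reads. The summed counts were 46 and 5, a ratio of 9.28 after normalization with a 95% counting interval of 3.7 to 29.9 that leaves out the spread between mice. The fitted log2 fold change was 3.20 (SE 0.832, DESeq2 adjusted p = 0.00111), a value set by few reads. When the reads of both HSP70 copies were added, the sum rose by log2 1.53 (DESeq2 adjusted p = 6.8e-09).

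*Dnaja1* had 1856, 1459 and 2054 normalized counts in water-PBS and 3419, 2976 and 3481 in water-Dex. Again the groups did not overlap. It rose 1.84-fold (log2 0.88, SE 0.139, DESeq2 adjusted p = 6.4e-09) and was called in all 21 alternatives.

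*Hspa8* had 6815, 5126 and 6711 normalized counts in water-PBS and 8621, 7719 and 8185 in water-Dex. The groups were separate, but the difference was small (1.31-fold, log2 0.39, SE 0.142, DESeq2 adjusted p = 0.0284). The call was lost without water-PBS replicate 2 (adjusted p = 0.203), without water-Dex replicate 1 (0.12) and without water-Dex replicate 3 (0.0889). It was also lost when libraries were scaled by their total count (log2 0.20, adjusted p = 0.31), an alternative chosen after seeing the data.

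*Dnajb1*, the J protein that serves the inducible HSP70, had 258, 231 and 264 normalized counts in water-PBS and 309, 334 and 309.7 in water-Dex. These groups did not overlap either, yet the test was not passed (log2 0.34, SE 0.141, DESeq2 adjusted p = 0.0672), unless zinc-PBS replicate 3 was left out (0.0278). *Hsp90aa1* (log2 0.24), *Hsph1* (0.45), *Hspb1* (0.10), *Hspe1* (0.07) and *Hsf1* (0.13) had DESeq2 adjusted p values of 0.204 to 0.857 and overlapping groups. Without water-PBS replicate 1, which was the highest of the controls for *Hsp90aa1* and *Hsph1* and also had the high immediate early sum, *Hsp90aa1* (log2 0.42, adjusted p = 0.0385) and *Hsph1* (log2 0.74, adjusted p = 0.0135) were called higher. Water-Dex exceeded water-PBS in every library for 5 of 10 genes, as it did for 25.0% of 9574 genes whose mean was 50 normalized counts or more. *Hspa1a* (mean 8.17), which is among the 5, and *Hspb1* (39.5) are below that limit.

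**Figure D3:**
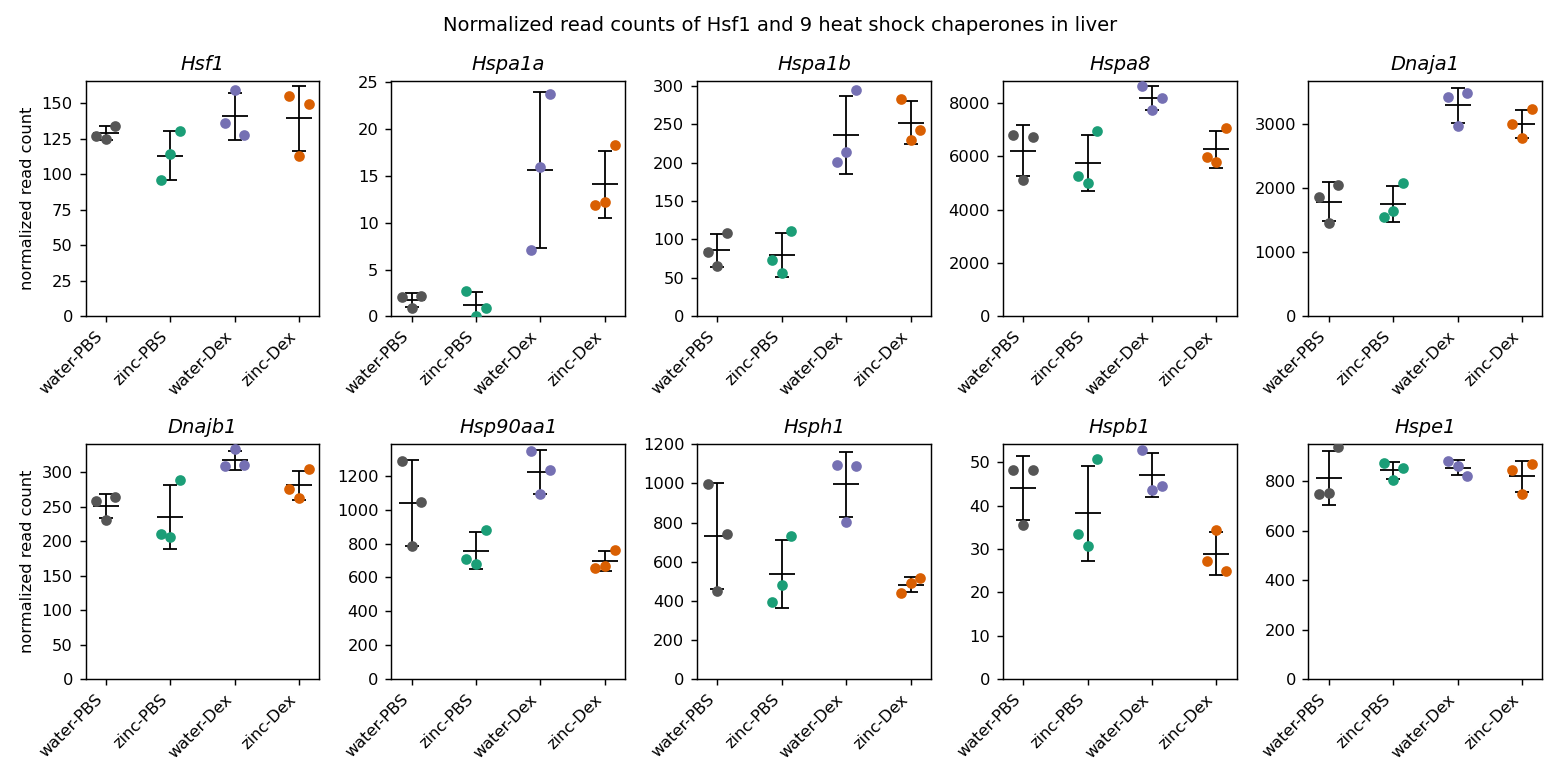
Normalized read counts of the 10 genes, 1 point per mouse, with the mean and SD of each group of 3 as bars; each panel starts at 0. Hspa1a, Hspa1b and Dnaja1 are higher in both Dex-injected groups than in both PBS-injected groups, and Hsp90aa1 and Hsph1 are lower in zinc-Dex than in water-Dex.

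The Dex effect was then measured in mice on zinc water. *Hspa1b*, *Dnaja1* and *Hspa1a* were called higher here too, 3 of 10 genes, and 0 were called lower. *Hspa1b* had 73.1, 55.9 and 111 normalized counts in zinc-PBS and 283, 229 and 243 in zinc-Dex, a 3.15-fold rise (log2 1.65, SE 0.24, DESeq2 adjusted p = 1.6e-10). *Dnaja1* had 1557, 1639 and 2078 normalized counts in zinc-PBS and 3001, 2780.3 and 3231 in zinc-Dex (1.71-fold, log2 0.77, SE 0.139, DESeq2 adjusted p = 5.4e-07). Both genes were separate between the groups.

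*Hspa1a* had 3, 0 and 1 raw reads in zinc-PBS and 11, 11 and 19 in zinc-Dex. The summed counts of 41 and 4 gave a ratio of 12.0 with a 95% counting interval of 4.35 to 46.2, and the fitted log2 fold change was 3.57 (SE 0.897, DESeq2 adjusted p = 0.000707). Of 15521 genes tested, 20.3% were called, 11.1% higher and 9.16% lower. *Hspa8* (log2 0.13, DESeq2 adjusted p = 0.624) and *Dnajb1* (log2 0.26, DESeq2 adjusted p = 0.221) did not pass the test, and their groups overlapped.

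Averaged over plain and zinc water, the mean Dex effect set 6 mice against 6. Here 5 of 10 genes were called higher and 0 lower, where 28.8% of 17045 genes were called, 14.7% higher and 14.2% lower. *Hspa1a* (log2 3.39), *Hspa1b* (log2 1.56, SE 0.17, DESeq2 adjusted p = 1.3e-18) and *Dnaja1* (log2 0.83, SE 0.0986, DESeq2 adjusted p = 1.2e-15) kept their call in each alternative that gave them a value. *Dnajb1* (log2 0.30, SE 0.1, DESeq2 adjusted p = 0.0132) lost its call when water-PBS replicate 2 (0.0529), zinc-PBS replicate 2 (0.0566) or zinc-Dex replicate 3 (0.0563) was left out. *Hspa8* (log2 0.26, SE 0.1, DESeq2 adjusted p = 0.0347) lost its call in 6 of the 12 fits that left out 1 library, namely water-PBS replicate 2, zinc-PBS replicates 1 and 2, water-Dex replicates 1 and 3 and zinc-Dex replicate 3, with adjusted p values of up to 0.115.

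The scale of the libraries bears on these small differences. Scaling by total count moved the median log2 fold change of all genes by -0.20 with Dex on plain water and by -0.23 on zinc water, and by -0.01 to -0.04 with zinc. The share of higher among all called genes went from 53.9% to 23.5% with Dex on plain water, from 54.8% to 20.2% on zinc water, from 50.8% to 18.8% in the mean Dex effect and from 54.2% to 19.5% in zinc-Dex against water-PBS. It went from 67.1% to 50.7% with zinc in Dex-injected mice and from 67.0% to 47.9% in the mean zinc effect. Under it *Hspa8* (log2 0.05, adjusted p = 0.737) and *Dnajb1* (log2 0.09, adjusted p = 0.539) were not called in the mean Dex effect, and *Hspe1* was called lower (log2 -0.20, adjusted p = 0.0351). *Hspa1a*, *Hspa1b* and *Dnaja1* were called higher under both scales. The 8 hepatocyte markers moved with Dex as well, by a median of 0.28, and all 8 were called higher, of which 1 was under total count scaling. Their summed level was 1248453 to 1473606 in PBS-injected and 1630184 to 1803071 in Dex-injected mice. In the mean Dex effect 14.7% of all genes were called higher and 14.2% lower. There 4 of 10 blood markers were higher and 2 lower, and 3 of 8 endothelial markers were higher and 2 lower. Of 8 stellate cell markers 2 were higher and 2 lower, and 1 of 6 bile duct markers was lower. Of 8 Kupffer cell markers 0 were called by DESeq2 with its own scaling or by edgeR, with 1 and 2 at an unadjusted p under 0.05. Under total count scaling 0 of these 8 were higher and 6 lower. The part of these shifts in the results was not tested.

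Zinc alone was examined in PBS-injected mice. None of the 9 genes with an adjusted p was called in zinc-PBS against water-PBS by DESeq2 or by edgeR, where 0.351% of 11967 genes were called in either direction, and all groups overlapped. At an unadjusted p under 0.05, 1 gene differed by either tool. This was *Hsp90aa1*, with 1286, 784 and 1048 normalized counts in water-PBS and 710.4, 678 and 883 in zinc-PBS (log2 -0.46, SE 0.164, DESeq2 adjusted p = 0.399). Without water-PBS replicate 2 it was called lower (log2 -0.62, adjusted p = 0.0222). *Hspa1b* differed by log2 -0.09 (95% interval -0.58 to 0.40), *Dnaja1* by -0.02 (-0.30 to 0.25) and *Hsf1* by -0.18 (-0.53 to 0.16).

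In Dex-injected mice, zinc water went with lower transcripts of the HSP90 gene *Hsp90aa1* and of *Hsph1*. In zinc-Dex against water-Dex these 2 of 9 genes were called lower and 0 higher, where 1.39% of 12475 genes were called, 0.457% lower. The median log2 fold change of the 9 genes was -0.18, against 0 over all genes tested. A list of 13 chaperones of the endoplasmic reticulum had a median of -0.25 in this comparison, with 0 called. *Hspa1a* had no adjusted p in this comparison because of its low counts. Its sums of 41 and 46 reads gave a ratio of 0.915 with a 95% counting interval of 0.585 to 1.42.

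*Hsp90aa1* had 1349, 1090.1 and 1232 normalized counts in water-Dex, against 658, 669.8 and 762 in zinc-Dex. The highest zinc-Dex mouse was below the lowest water-Dex mouse. The level was 0.57 times that of water-Dex (log2 -0.81, SE 0.165, DESeq2 adjusted p = 0.000415). The call held in all 21 alternatives, with log2 values of -0.89 to -0.74, and edgeR gave an adjusted p of 0.041.

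*Hsph1* had 1093, 805 and 1091 normalized counts in water-Dex, against 441, 491 and 517 in zinc-Dex. These groups did not overlap, and the level was 0.48 times that of water-Dex (log2 -1.04, SE 0.249, DESeq2 adjusted p = 0.00556). The direction was the same in all 21 alternatives, with log2 values of -1.18 to -0.97, but the call was lost in 8. With edgeR the adjusted p was 0.0932. Leaving out water-Dex replicate 1 gave 0.244, water-Dex replicate 3 gave 0.0704, and zinc-Dex replicates 1, 2 and 3 gave 0.324, 0.113 and 0.135. Leaving out water-PBS replicate 3 gave 0.0904 and zinc-PBS replicate 2 gave 0.0999, both libraries outside the comparison that add to the estimate of the spread.

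*Hspa8* had 8621, 7719 and 8185 normalized counts in water-Dex, against 5957, 5777 and 7065 in zinc-Dex. All zinc-Dex mice were lower, but the gene did not pass the test (log2 -0.38, SE 0.142, DESeq2 adjusted p = 0.198). With only the 6 libraries compared it was called (adjusted p = 0.0169). *Hspb1*, at 27.2, 34.4 and 25.0 normalized counts in zinc-Dex against 52.8, 43.6 and 44.5 in water-Dex, also had separate groups (log2 -0.71, SE 0.29, DESeq2 adjusted p = 0.286). *Dnajb1* was likewise lower in every zinc-Dex mouse (log2 -0.18, DESeq2 adjusted p = 0.778). In all, zinc-Dex lay below water-Dex in every library for 5 of 10 genes, as it did for 10.5% of the 9574 genes.

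*Hspa1b* and *Dnaja1*, which rose with Dex, had overlapping groups here. *Hspa1b* differed between zinc-Dex and water-Dex by log2 0.09 (95% interval -0.36 to 0.54) and *Dnaja1* by -0.13 (-0.40 to 0.14). *Hspe1* differed by -0.06 (-0.27 to 0.15) and *Hsf1* by -0.01 (-0.35 to 0.33). In the marker lists for hepatocytes, Kupffer cells, endothelium, stellate cells, bile duct and blood, DESeq2 and edgeR called 0 genes with zinc in Dex-injected mice, and 1 hepatocyte and 1 bile duct marker had an unadjusted p under 0.05 by either tool. The summed level of the 6 bile duct markers was 589 to 817 in water-Dex and 949 to 1165 in zinc-Dex, and its part in the result was not tested.

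**Figure D4:**
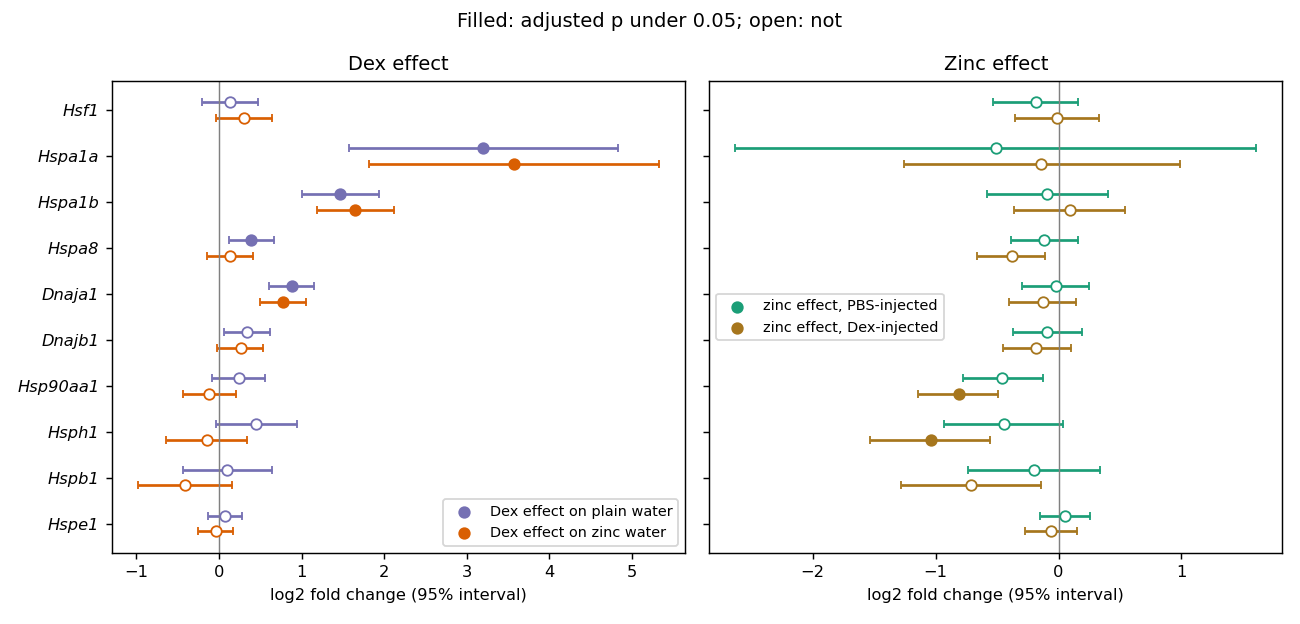
Log2 fold changes of the 10 genes with 95% intervals; left, the Dex effect on plain and on zinc water; right, the zinc effect in PBS-injected and in Dex-injected mice. Filled points had a DESeq2 adjusted p under 0.05. The Dex effects of Hspa1a, Hspa1b and Dnaja1 are filled on both waters, and the zinc effects of Hsp90aa1 and Hsph1 are filled in Dex-injected mice.

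The mean zinc effect averages over both injections, so it contains the comparison of zinc-Dex with water-Dex and is no separate result. In it *Hsp90aa1* (log2 -0.63, SE 0.116, DESeq2 adjusted p = 3.0e-05) and *Hsph1* (log2 -0.74, SE 0.176, DESeq2 adjusted p = 0.00365) were called lower. These were 2 of 10 genes, where 2.29% of 12983 genes were called, 0.755% lower. In PBS-injected mice alone neither was called (DESeq2 adjusted p = 0.399 and 0.918). The call of *Hsph1* was lost in 8 of 20 alternatives, among them edgeR (adjusted p = 0.0669), water-PBS replicate 3 left out (0.0737), zinc-PBS replicate 2 left out (0.124) and water-Dex replicate 1 left out (0.129). It was also lost without zinc-Dex replicates 1, 2 and 3 (0.141, 0.0701 and 0.0873) and with a threshold on the fold. *Hspa8* (log2 -0.25, DESeq2 adjusted p = 0.222) was called lower when zinc-PBS replicate 3 was left out (adjusted p = 0.0196).

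Whether the zinc effect differed between PBS-injected and Dex-injected mice was tested as an interaction. DESeq2 and edgeR each called 0 of the 10 genes, 0 had an unadjusted p under 0.05 by either tool, and DESeq2 called 0.0229% of 26185 genes, 0.00764% higher and 0.0153% lower. The interaction was log2 -0.36 (95% interval -0.81 to 0.10) for *Hsp90aa1*, -0.60 (-1.29 to 0.09) for *Hsph1*, and 0.18 (-0.48 to 0.85) for *Hspa1b*. A zinc effect that differed between the injections was thus not shown for these genes.

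Both treatments together were set against neither. In zinc-Dex against water-PBS 3 of 10 genes were higher, where 23.8% of 14506 genes were called and 12.9% were higher, and 1 was lower, where 10.9% were. *Hspa1a* (log2 3.06, DESeq2 adjusted p = 0.00196), *Hspa1b* (log2 1.56, DESeq2 adjusted p = 2.2e-09) and *Dnaja1* (log2 0.75, DESeq2 adjusted p = 1.3e-06) were the higher ones. *Hsp90aa1* was lower (log2 -0.58, SE 0.165, DESeq2 adjusted p = 0.00355), though not without water-PBS replicate 1 (log2 -0.39, adjusted p = 0.058). *Hspa8* stood at 6266 ± 697 normalized counts in zinc-Dex and 6218 ± 947 in water-PBS (SD, n = 3), with a log2 difference of 0.01 (95% interval -0.27 to 0.29). *Hsph1* did not pass the test (log2 -0.59, DESeq2 adjusted p = 0.0668) but was called lower in 6 of 21 alternatives, among them total count scaling (log2 -0.83, adjusted p = 0.0239) and the fit without water-PBS replicate 2 (log2 -0.85, adjusted p = 0.00196). *Hspb1* (log2 -0.61, DESeq2 adjusted p = 0.119) was called under total count scaling (log2 -0.85, adjusted p = 0.0143). These comparisons share groups and are not independent of each other.

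When an absolute log2 fold change above 0.8 was asked for besides the adjusted p, 3 of the 10 genes were called with Dex on plain water, where 9.79% of all genes tested were, and 2 on zinc water, where 9.75% were. The mean Dex effect had 3, where 10.3% of all genes were called, and zinc-Dex against water-PBS had 2, where 11.0% were. *Hsp90aa1* and *Hsph1* passed this threshold with zinc in Dex-injected mice, as 0.473% of all genes did, and 0 of the 10 genes passed it with DESeq2 in zinc-PBS against water-PBS (0.142% of all genes), in the mean zinc effect (0.331%) and in the interaction (0.0191%). In these 3 comparisons 1, 4 and 0 genes had an unadjusted p under 0.05.

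The regulator *Hsf1* did not pass the test in any comparison. It had 127, 125 and 134 normalized counts in water-PBS, 95.7, 114 and 130.4 in zinc-PBS and, after Dex, 136, 159.5 and 128 on plain water and 155, 113 and 149.9 on zinc water. The 4 groups overlapped, and the lowest DESeq2 adjusted p of the 8 comparisons was 0.188, for the mean Dex effect (log2 0.22, 95% interval -0.02 to 0.46). *Hspe1*, whose partner in the mitochondrial chaperonin is HSP60, lay between 748 and 941 normalized counts in all 12 mice and passed no test, except for the call under total count scaling given above.

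Mice of 1 group also differed from each other in these chaperones. The log2 deviations from the group means were compared over the 12 libraries, which share the size factor of each library. Pearson's r was 0.94 between *Hsp90aa1* and *Hsph1*, 0.92 between *Hspa8* and *Dnaja1*, 0.90 between *Hspa8* and *Hsp90aa1*, and 0.86 between *Hspa8* and *Hsph1*. *Hspa1b* was closest to *Dnaja1* (0.78). *Hsf1* was closest to *Dnajb1* (0.67) and was at -0.17 with *Hspa1a*, the lowest of the pairs. *Hspe1* was at 0.04 with *Hsph1*. Water-PBS replicate 2 was the lowest control, and zinc-PBS replicate 3 the highest of its group, for *Hspa8*, *Hsp90aa1*, *Hsph1*, *Dnaja1*, *Dnajb1*, *Hspa1b* and *Hspb1*.

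**Figure D5:**
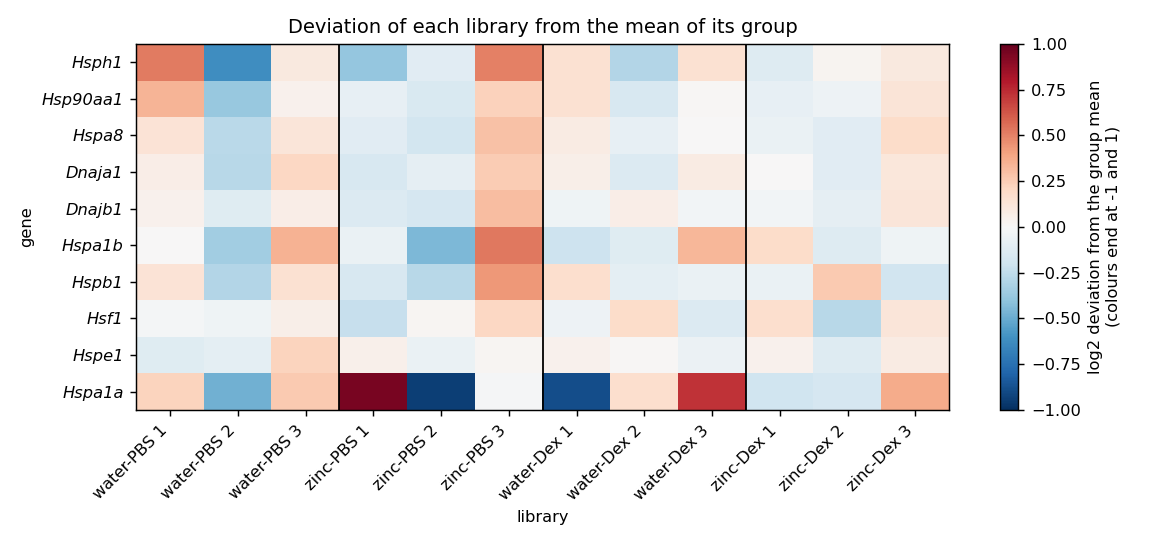
Log2 deviation of each library from the mean of its group, for 10 genes (rows) and 12 libraries (columns, parted by group); red is above and blue below the group mean. Water-PBS replicate 2 is below its group mean, and zinc-PBS replicate 3 above it, in the cytosolic chaperones Hsph1, Hsp90aa1, Hspa8, Dnaja1 and Dnajb1.

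The 5 genes most like the heat-inducible members were sought among 9566 other genes by the same deviations, set against the mean deviation of *Hspa1a*, *Hspa1b*, *Dnajb1* and *Hsph1*. They were *Sfpq* (r = 0.93), *Abi2* (0.91), *Mical3* (0.91), *Prox1* (0.89) and *Slc35a4* (0.89). Of the genes in that mean, *Hspa1a* had the largest deviations, up to 0.95 in zinc-PBS replicate 1, from 0 to 24 raw reads per library. Its own r was 0.53 with *Hspa1b*, 0.23 with *Dnajb1* and 0.07 with *Hsph1*. How far its few reads set the ranking was not tested. With 12 libraries and so many genes, such values are a description of these mice.

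Other genes of the chaperone network were examined as lists. Of 29 other cytosolic chaperones and cochaperones tested, 8 were higher and 0 lower in water-Dex against water-PBS, with a median of 0.19. Of all genes tested 11.8% were higher and 10.1% lower. Under total count scaling, where 23.5% of all called genes were higher, 3 of the 29 were higher and 3 lower. Among those with a mean of at least 50, the largest changes were those of *Hspa2*, an HSP70 best known from the testis, and *Fkbp5*, an HSP90 cochaperone that is a classical glucocorticoid receptor target. *Hspa2* rose from 18.1 ± 6.65 to 189 ± 29.9 normalized counts (log2 3.38, SE 0.26, DESeq2 adjusted p = 1.6e-36), and *Fkbp5* from 923 ± 335 to 8014 ± 39.7 (log2 3.12, SE 0.203, DESeq2 adjusted p = 8.0e-51; SD, n = 3). Both were called under total count scaling as well. *Chordc1*, an HSP90 cochaperone, rose by 0.44 (DESeq2 adjusted p = 0.0178) but was not called under total count scaling (log2 0.24, adjusted p = 0.23).

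With zinc in Dex-injected mice, 3 of these 29 genes were lower and 0 higher, with a median of -0.12, and 0.457% of all genes tested were lower. *Chordc1* fell from 878 ± 75.1 to 599 ± 23.8 normalized counts (log2 -0.55, DESeq2 adjusted p = 0.0207). *Stip1*, which links HSP70 to HSP90, fell from 816 ± 55.7 to 579 ± 25.7 (log2 -0.50, DESeq2 adjusted p = 0.024). *Ahsa1*, which activates the HSP90 ATPase, fell from 851 ± 15.4 to 624 ± 33.3 (log2 -0.45, DESeq2 adjusted p = 0.00941). edgeR called none of the 3, with adjusted p values of 0.0932, 0.0932 and 0.064, and 10 of the 29 genes had an unadjusted p under 0.05 by either tool. In zinc-PBS against water-PBS 0 of the 29 were called by either tool, and 2 had an unadjusted p under 0.05 by either. The 13 chaperones of the endoplasmic reticulum had medians of -0.25 with zinc in PBS-injected and in Dex-injected mice. Their median was -0.26 in the mean zinc effect. Either tool called 0 of the 13 in these 3 comparisons. In the mean zinc effect 4 of the 13 had an unadjusted p under 0.05 by DESeq2 and 5 by edgeR.

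Of the cytosolic chaperonin TRiC and the prefoldins, which fold actin and tubulin, 8 of 14 genes were higher in the mean Dex effect and 0 lower, with a median of 0.20, beside 14.7% of all genes higher and 14.2% lower. *Pfdn2* (log2 0.37, DESeq2 adjusted p = 9.8e-05), *Cct2* (0.29, 7.4e-07) and *Cct7* (0.26, 0.000173) had the largest values. Total count scaling moved the median log2 fold change of all genes by -0.21 in this comparison, and 18.8% of all genes called under it were higher. Of the 14 genes 0 were then higher and 2 lower. Which scale is right was not tested. Among 9 mitochondrial chaperones 2 were higher and 1 lower in the mean Dex effect, and of 13 chaperones of the endoplasmic reticulum 1 was higher and 1 lower, shares near or below the 28.8% of all genes called in either direction. Under total count scaling, where 18.8% of all called genes were higher, 1 mitochondrial gene was higher and 4 were lower. *Dnaja3*, a mitochondrial J protein, rose from 1166 ± 91.6 in water-PBS to 1891 ± 35.8 in water-Dex (log2 0.70, DESeq2 adjusted p = 2.8e-18), also under total count scaling. The genes of the endoplasmic reticulum were *Dnajc3*, which was higher (log2 0.32, DESeq2 adjusted p = 0.00854) but not called under total count scaling, and *Pdia4*, which was lower (log2 -0.49, DESeq2 adjusted p = 0.00129). Of 4 other small heat shock proteins tested, 1 was higher, *Hspb8* (log2 0.26, DESeq2 adjusted p = 0.0137), not called under total count scaling.

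In the mean Dex effect 14.2% of all genes were lower and 14.7% higher. Of 4 other genes tested in the list of heat shock factors and their binding protein, 2 were lower there and 0 higher. The lesser was *Hsf4* (log2 -0.69, DESeq2 adjusted p = 0.00208), which had few counts and is named after its values were seen. The other was *Hsf2*, a partner of HSF1 in heterotrimers. *Hsf2* had 379.7 ± 50.5 normalized counts in water-PBS, 254 ± 29.9 in zinc-PBS, 206 ± 9.88 in water-Dex and 161 ± 12.1 in zinc-Dex (SD, n = 3). The fall with Dex on plain water was log2 -0.88 (SE 0.138, DESeq2 adjusted p = 3.7e-09) and with zinc in PBS-injected mice log2 -0.58 (SE 0.134, DESeq2 adjusted p = 0.00837), the latter not called by edgeR (adjusted p = 0.0954). In Dex-injected mice the zinc effect on *Hsf2* was not called (log2 -0.36, DESeq2 adjusted p = 0.294), and averaged over both injections *Hsf2* was lower with zinc (log2 -0.47, SE 0.0998, DESeq2 adjusted p = 0.000663, edgeR adjusted p = 0.0183).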

How the data were processed

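Liver RNA of 12 mice had been sequenced as stranded single-end libraries. According to the submitters' processing notes and the methods, the authors trimmed reads with Trimmomatic, mapped them to mm10 with HISAT2 2.0.4 and counted them per gene with featureCounts, leaving out multimapping reads, and the deposited values are raw read counts. Symbols and coordinates came from GENCODE M21 for 54723 of the 54838 identifiers. Annotation release and strand setting were not given in the sources used here.

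Columns were assigned to groups by their labels. Differential expression was tested with DESeq2 1.42.0 (R 4.3.3), by Wald tests on all 12 libraries together (a coefficient for each group), as the study's methods name DESeq2 at an FDR of 5%. A gene was called when its p, adjusted by Benjamini-Hochberg over all genes, was under 0.05. The comparisons were the 5 between groups, the mean zinc and Dex effects, and the interaction. The fit was tested on simulated data. TPM were computed from counts and exon length. Promoters were searched as letters in RefSeq windows.

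Members and lists were chosen with earlier results of these data known. All 10 members are named, and of each list at most the 3 largest changes among genes that were called and averaged 50 normalized counts or more. *Mt1* and *Tat* were checks of treatment, and the 5 most similar genes were ranked by Pearson's r. Alternatives were edgeR 4.0.16, TMM factors, total count scaling (added after seeing the data), at least 10 counts in at least 3 libraries, the replicate number as a block, only the 6 libraries compared, an absolute log2 fold change above 0.8, no Cook distance filter, both HSP70 copies summed, and each library left out. Replicates differed by 5.7 to 18.8 times the counting noise (chi-square per degree of freedom), so none was a copy of another. Nothing says that mice shared litters or cages, and with 3 against 3 an exact permutation test of 1 gene cannot go below 0.1.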

Additional observations from a re-analysis of the deposited data

How the results depend on the processing

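Over the alternatives, 1600 fold changes of single members were computed, of which 1546 kept their side of the threshold, 39 lost and 14 gained a call, and 1 reversed with a call, *Hspe1* in the mean Dex effect (log2 -0.20 under total count scaling). Of the 1546, 38 changed sign without a call in either fit, 10 of them under total count scaling. With edgeR 1 member was called lower in zinc-Dex against water-Dex and 1 in the mean zinc effect. With the threshold of 0.8 on the log2 fold change, 0 members were called in the mean zinc effect, 3 in the mean Dex effect and 2 in zinc-Dex against water-PBS. Leaving out 1 library gave 0 to 1 members in zinc-PBS against water-PBS, 1 to 2 in zinc-Dex against water-Dex, 1 to 3 in the mean zinc effect and 3 to 5 in the mean Dex effect. It gave 3 to 6 with Dex on plain water, 3 to 4 on zinc water, 3 to 5 in zinc-Dex against water-PBS and 0 in the interaction. The cause was not tested. For edgeR and the fits that left out 1 library, the share of all genes called is not given here. With DESeq2 on all 12 libraries it was 22.0% with Dex on plain water, 20.3% on zinc water and 28.8% in the mean Dex effect. It was 0.351% in zinc-PBS against water-PBS, 1.39% in zinc-Dex against water-Dex and 2.29% in the mean zinc effect.

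Mice with the same replicate number did not deviate together: over 18 pairs of libraries r lay between -0.2 and 0.19, and 1 was over 0.1. With the number as a replicate block, 5 members were called in zinc-Dex against water-PBS, 5 in the mean Dex effect and 2 in zinc-Dex against water-Dex. The shares of all genes called with this block are not given here. Without the block they were 23.8%, 28.8% and 1.39%. Depth limits *Hspa1a*, with 0 to 24 reads per library, and *Hspb1*, with 25 to 56. Small Dex effects depend on the scale of the libraries.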
